A study of Mus musculus with 6 samples.

Results

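The nuclear receptor superfamily is the family of transcription factors that includes the receptors for steroid and thyroid hormones, retinoic acid, fatty acids, oxysterols, bile acids and drugs. Members were found by gene symbol from a list of 46 genes, and 43 of them had a named row among the 16331 rows of the deposited table. The other 3, Nr1h2, Nr3c2 and Nr2e3, had no row named with their symbol and were not analysed here. Gene expression was measured in primary hepatocytes of male C57Bl6 mice, with 3 cultures given 10 µM cyclosporin A (CsA) for 48 hours, 3 given the vehicle alone at 0.5% DMSO, and 1 array for each sample. CsA is an immunosuppressant that inhibits calcineurin through cyclophilins and can impair bile flow, and the series addressed screening for drug-induced liver toxicity. All cultures were kept in a collagen sandwich in serum-free medium with insulin, glucagon and hydrocortisone, which is a ligand of the glucocorticoid receptor. The labels' protocol speaks of a different animal for each independent experiment and gives no age. The titles of the 3 CsA arrays share a prefix whose meaning is not stated, while those of the 3 DMSO arrays each have their own. If the CsA arrays were not separate cultures, their SD and the p-values would measure only the spread between arrays. The labels do not settle this, and whether the CsA cultures also held DMSO was not given in the sources used here. Isolated cells in culture lack the organ's blood supply and architecture, and the RNA of each sample was measured in bulk.

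Most nuclear receptors bind short DNA elements through a zinc finger domain and change the transcription of nearby genes when a ligand occupies their second conserved domain. Many of those that sense metabolites or drugs bind DNA as a pair with a retinoid X receptor (RXR). In hepatocytes they control bile acid synthesis and export, drug metabolism, fatty acid oxidation and the hepatocyte's identity. Some members, called orphan receptors, have no established natural ligand.

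Values are log2 expression values, so a difference of 1 is a doubling, and all differences are CsA minus DMSO with the moderated standard error (SE). A gene was called lower or higher when its limma adjusted p, computed over all 16331 rows, was under 0.05. Correlations of values over all rows were 0.990 to 0.997 within the groups and 0.969 to 0.981 between them. Both arrays numbered 3 stood apart from the others. Deviations from the group mean over all rows correlated at 0.499 between them, and at -0.203 to -0.496 between either and an array of another number in the other group. The deviations of a group sum to 0 in each row. A positive correlation with 1 array of the other group therefore forces a negative one with another of its arrays. All 8 measured hepatocyte markers lay between 12.92 and 15.29 in DMSO, near the top of the scale. Of 40 measured markers of Kupffer, stellate, endothelial, bile duct and lymphoid cells, 1 lay above the median row (Fcgr2b, in the endothelial list), and 5 fell and 1 rose after CsA.

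CsA was followed by lower levels of 14 of the 43 measured receptor genes and by higher levels of 2, while 27 did not pass. Over all rows, 9.05% were lower and 9.55% higher, while 32.6% of the members were lower and 4.65% higher. The members' median difference was -0.092, against 0.035 over all rows. With the replicate number as a block, a fit that removes differences shared by same-numbered cultures, 16 members were lower and 7 higher, against 12.9% and 15.8% of all rows. Without both arrays numbered 3, 16 were lower and 6 higher, against 11.2% and 14.2% of all rows. All 3 CsA arrays lay below all 3 DMSO arrays for 20 members, against 15.3% of all rows, and above them for 4, against 19.8%. In bulk RNA, fewer cells of a type and less RNA per cell cannot be told apart.

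**Figure D1:**
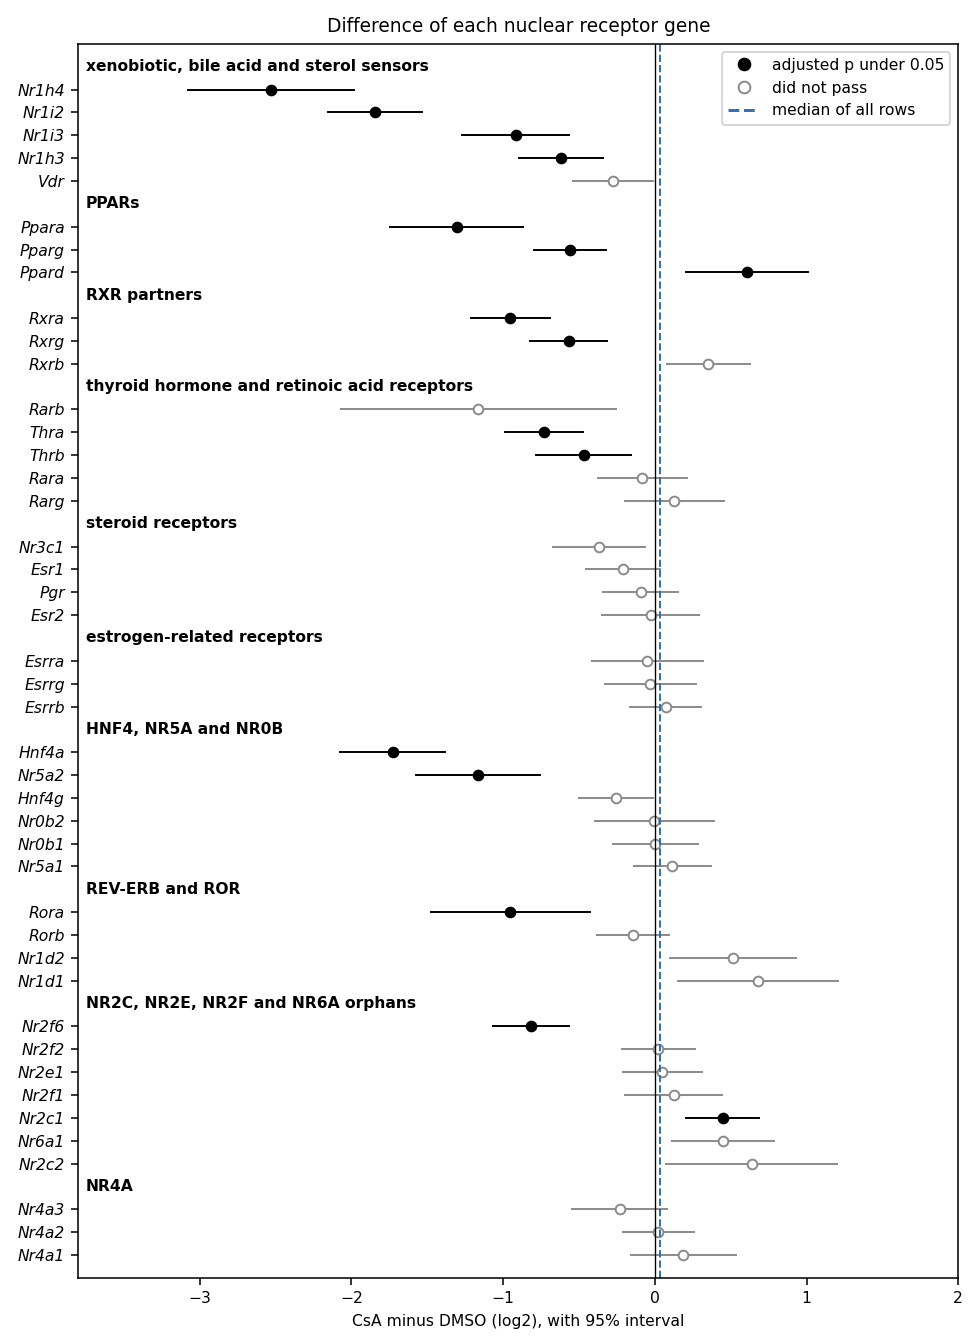
CsA minus DMSO on the log2 scale for the 43 measured members, ordered within role groups, with 95% intervals from limma (filled, adjusted p under 0.05; open, did not pass; dashed line, median of all rows at 0.035). Nr1h4, Nr1i2 and Hnf4a lie farthest to the left, at -2.53, -1.85 and -1.73, and the 2 filled points right of 0 are Ppard and Nr2c1.

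The promoters of the 4 members with the largest falls are shown here because these genes fell together. The sequences are from RefSeq (assembly GRCm38.p6) and give the 250 bases before an annotated transcription start, 5′ to 3′ on the gene's strand. Capitals mark matches to AGGTCA, the core element to which many nuclear receptors bind. Nr1h4, the bile acid receptor FXR, chr10:89506659-89506908, minus strand, holds 1 match, which reads as its reverse complement at positions -214 to -209 from the start.
Nr1h4: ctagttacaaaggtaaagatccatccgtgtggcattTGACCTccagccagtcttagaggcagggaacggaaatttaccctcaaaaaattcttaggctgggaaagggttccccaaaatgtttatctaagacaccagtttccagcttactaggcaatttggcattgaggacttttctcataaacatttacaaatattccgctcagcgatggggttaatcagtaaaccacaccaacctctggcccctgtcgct
Nr1i2, the drug receptor PXR, chr16:38294825-38295074, minus strand, holds none.
Nr1i2: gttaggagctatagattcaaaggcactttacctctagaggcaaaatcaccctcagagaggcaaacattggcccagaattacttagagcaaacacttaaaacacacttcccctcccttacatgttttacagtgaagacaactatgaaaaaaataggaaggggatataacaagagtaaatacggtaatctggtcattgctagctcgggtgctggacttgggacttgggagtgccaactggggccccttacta
Hnf4a has 2 annotated windows, and of its known alternative promoters the downstream one is used in adult liver. The upstream window, chr2:163506607-163506856, plus strand, holds no match.
Hnf4a upstream: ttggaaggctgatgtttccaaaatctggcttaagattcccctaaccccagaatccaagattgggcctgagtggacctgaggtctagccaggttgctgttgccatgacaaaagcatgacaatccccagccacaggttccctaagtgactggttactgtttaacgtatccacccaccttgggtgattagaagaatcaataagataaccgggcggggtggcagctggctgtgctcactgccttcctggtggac
The downstream window, chr2:163546905-163547154, plus strand, holds none either.
Hnf4a downstream: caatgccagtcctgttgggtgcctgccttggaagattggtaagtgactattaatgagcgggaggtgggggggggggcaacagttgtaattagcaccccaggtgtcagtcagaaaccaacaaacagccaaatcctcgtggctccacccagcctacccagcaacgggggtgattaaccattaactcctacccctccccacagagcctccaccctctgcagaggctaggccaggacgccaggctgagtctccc
Ppara, the fatty acid receptor, chr15:85735526-85735775, plus strand, holds none.
Ppara: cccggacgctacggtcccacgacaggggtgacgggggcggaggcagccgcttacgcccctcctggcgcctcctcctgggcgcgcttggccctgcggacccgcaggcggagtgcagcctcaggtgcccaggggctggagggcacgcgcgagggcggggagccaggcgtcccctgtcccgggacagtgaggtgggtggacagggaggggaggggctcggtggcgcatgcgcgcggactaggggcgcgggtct
The Ppara window is 76.4% G and C, against 44.4% for Nr1h4, 44.0% for Nr1i2 and 51.2% and 57.6% for the Hnf4a windows.

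Windows were found for 39 of the 43 members, 60 windows in all, and 4 motifs were searched on both strands. AGGTCA was held by 10 of the 39 members, among them 6 of the 15 called members with a window, against 15.8% of all 27025 genes with a window. Members had more windows per gene than genes in general, and counted by window it was held by 11 of their 60, against 14.0% of all 32851 windows. The 10 were Nr0b1, Nr1d2, Nr1h4, Nr5a2, Nr6a1, Pparg, Rarg, Rxra, Rxrg and Thrb. CACGTG, the E-box bound by clock factors among others, was held by 5 members (Esr2, Nr0b2, Nr1i3, Rara and Thrb), against 6.86% of genes, and by 5 of their windows, against 6.02% of all windows. CAAAGTCCA, a motif of HNF4A, and DR1, the direct repeat of AGGTCA spaced by 1 base, were held by 0 members, and by 0.451% and 0.0407% of all genes. A DR1 match also holds AGGTCA matches. A match describes letters in these windows and is not a binding site.

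In DMSO, 19 of the 43 members lay above the median row, which stood at 6.76. These were, from the highest, Rora, Nr1h4, Hnf4a, Nr2f6, Nr5a2, Ppara, Rxrb, Nr2c1, Nr1d2, Rxra, Esrra, Nr3c1, Nr1i2, Nr1h3, Pparg, Nr4a1, Nr2c2, Rara and Rxrg. The other 24 were not above it. Probes differ in how well they bind their target, so a place on this scale describes a row and does not rank the transcripts' abundance. The 6 measured lymphocyte markers averaged 3.04 to 5.67 in DMSO and no detection call was used, so a level in this range is not shown to be above background. Of the 19 above the median, 11 fell and 1 rose (57.9% and 5.26%), against 15.2% and 15.1% of all rows above it. Of the 24 others, 3 fell and 1 rose (12.5% and 4.17%), against 2.89% and 4.04% of all rows not above it. Over all rows, calls in both directions were less frequent below the median.

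**Figure D2:**
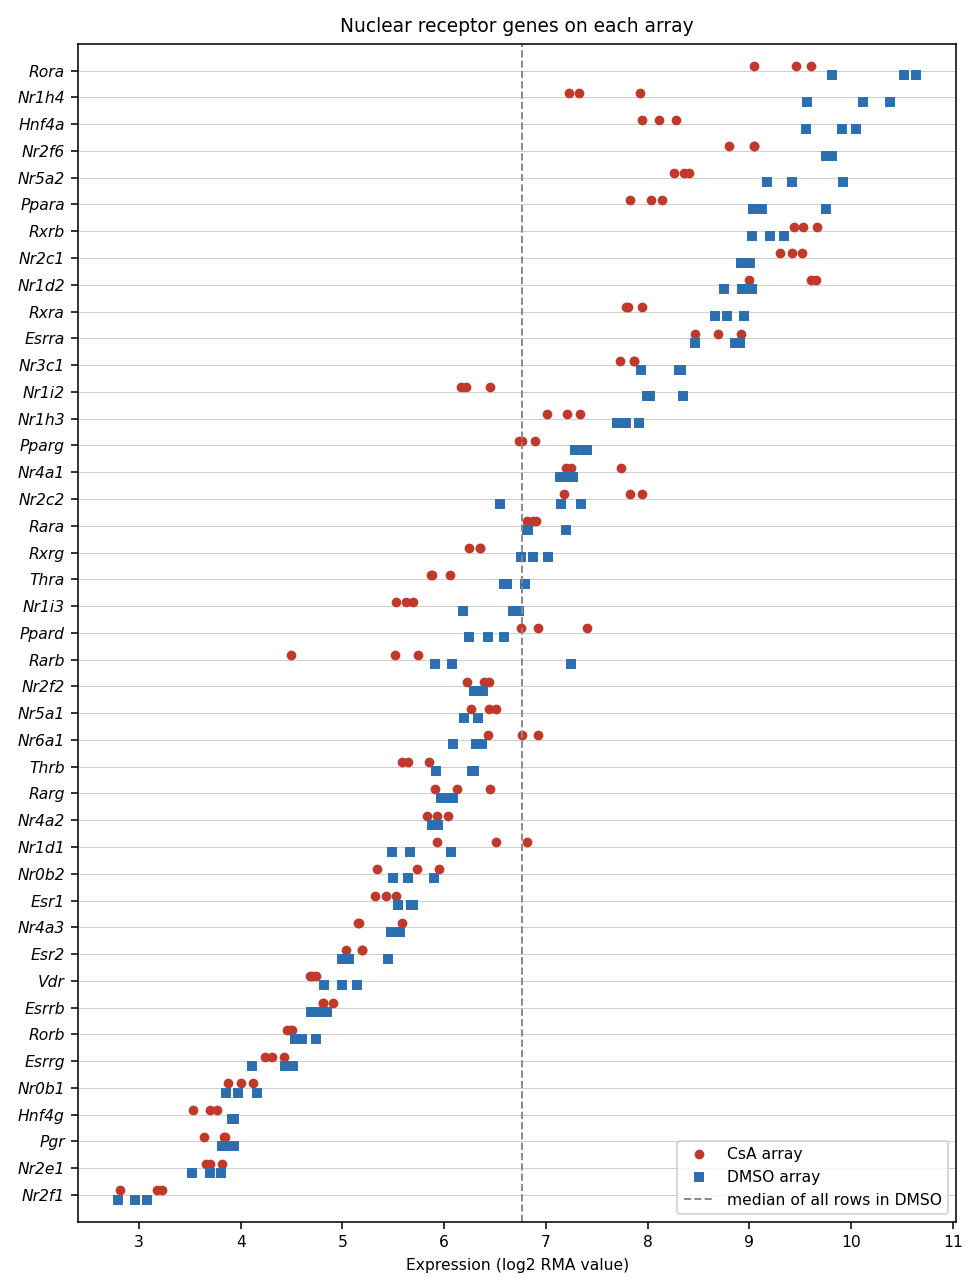
Log2 expression on each of the 6 arrays for the 43 measured members, ordered by the DMSO mean (circles, CsA; squares, DMSO; dashed line, median of all rows in DMSO at 6.76). The circles of Nr1h4, Hnf4a, Nr5a2, Ppara and Nr1i2 lie well to the left of their squares.

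**Figure D3:**
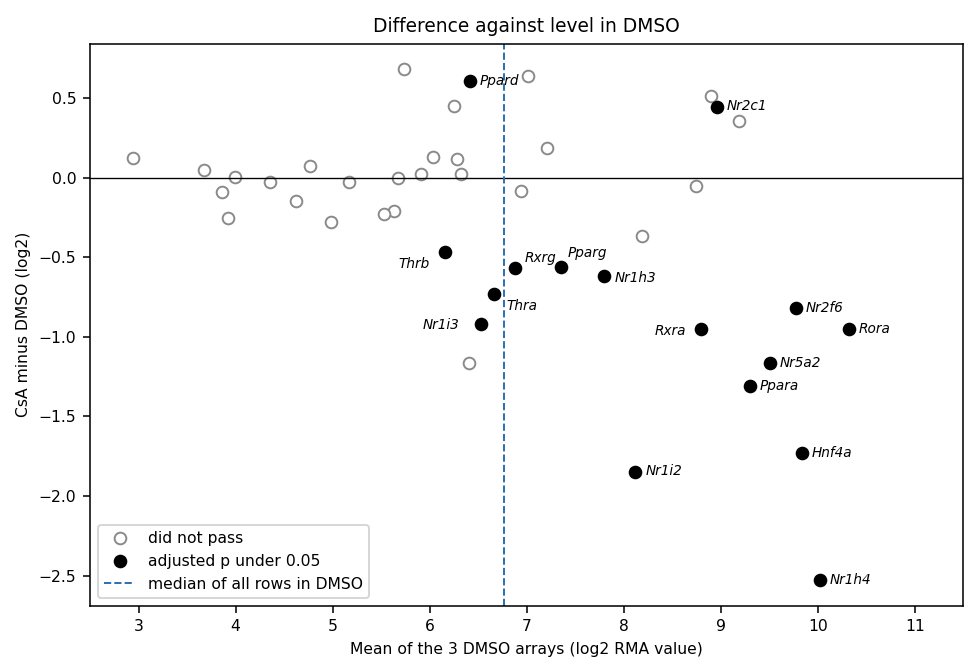
CsA minus DMSO on the log2 scale against the mean of the 3 DMSO arrays for the same 43 members (filled, adjusted p under 0.05; dashed line, median of all rows at 6.76). Of the 14 members that fell, 11 lie right of the dashed line, where 7 others did not pass.

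Among the receptors for bile acids, drugs, sterols and vitamin D, 4 of the 5 measured fell, 0 rose, and Vdr did not pass. Nr1h4 encodes FXR, which senses bile acids and restrains their synthesis. It stood at 7.93, 7.32 and 7.22 on the CsA arrays, against 10.12, 10.38 and 9.57 on the DMSO arrays. Every CsA value lay below every DMSO value by more than a log2 unit, and the difference was -2.53 ± 0.24 (5.77-fold lower, adjusted p = 0.000274).

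Nr1i2 encodes PXR, a sensor of drugs and bile acids that induces Cyp3a genes. Its values were 6.16, 6.22 and 6.45 in CsA, against 7.99, 8.35 and 8.02 in DMSO. The groups were tight and far apart, with a difference of -1.85 ± 0.14 (3.60-fold lower, adjusted p = 9.05e-05). Nr1i3 encodes CAR, the other main drug sensor of hepatocytes, which resides in the cytoplasm until activated. It read 5.69, 5.53 and 5.62 in CsA, against 6.73, 6.18 and 6.67 in DMSO. DMSO replicate 2 was the lowest control and still above all CsA arrays, and the difference was -0.92 ± 0.16 (adjusted p = 0.00435).

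Nr1h3 encodes the oxysterol receptor LXR alpha, which promotes cholesterol disposal and fatty acid synthesis. Levels of 7.33, 7.21 and 7.01 in CsA stood against 7.79, 7.92 and 7.70 in DMSO. The groups did not overlap, and the difference was -0.62 ± 0.12 (1.53-fold lower, adjusted p = 0.00882). Vdr, the vitamin D receptor, averaged 4.71 ± 0.03 in CsA and 4.98 ± 0.16 in DMSO (SD, n = 3 each). Its difference of -0.28 ± 0.11 did not pass (adjusted p = 0.139), although the groups did not overlap.

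The PPARs, which sense fatty acids and act as pairs with RXR, did not move one way. Ppara, the subtype that drives fatty acid oxidation in liver, read 8.14, 7.82 and 8.03 in CsA, against 9.76, 9.12 and 9.03 in DMSO. All CsA arrays were lower, with DMSO replicate 1 the highest of the 6, and the difference was -1.31 ± 0.19 (2.47-fold lower, adjusted p = 0.0022). Pparg, the subtype that drives fat storage in adipocytes, read 6.90, 6.73 and 6.77 in CsA, against 7.28, 7.41 and 7.39 in DMSO. That fall was smaller and the replicates close, at -0.56 ± 0.10 (adjusted p = 0.00668).

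Ppard, the broadly expressed subtype, rose. It read 6.76, 6.92 and 7.40 in CsA, against 6.24, 6.43 and 6.58 in DMSO. CsA replicate 3 was the highest array, and the difference was 0.61 ± 0.18 (1.52-fold higher, adjusted p = 0.0437). It no longer passed when CsA replicate 2 (0.66, adjusted p = 0.088), CsA replicate 3 (0.42, adjusted p = 0.0687), DMSO replicate 1 (0.52, adjusted p = 0.14) or DMSO replicate 2 (0.61, adjusted p = 0.115) was left out. Within each array, Ppara minus Ppard changed by -1.91 ± 0.39 (SE) after CsA, and the 2 groups of arrays did not overlap. An exact permutation test over the arrays gave p = 0.1, the smallest that 3 against 3 arrays allow.

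RXRs pair with many other members and so take part in most of their DNA binding. Rxra, the main hepatocyte form, read 7.81, 7.79 and 7.94 in CsA, against 8.95, 8.78 and 8.67 in DMSO. The CsA arrays sat together below all controls, with a difference of -0.95 ± 0.12 (1.93-fold lower, adjusted p = 0.000882). Rxrg, known mainly from muscle and brain, read 6.35, 6.24 and 6.35 in CsA, against 6.87, 6.75 and 7.02 in DMSO, and fell by 0.57 on the log2 scale (SE 0.11, adjusted p = 0.0086). All CsA arrays lay below all DMSO arrays.

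Rxrb, the broadly expressed form, averaged 9.54 ± 0.11 in CsA and 9.19 ± 0.16 in DMSO (SD, n = 3 each). Every CsA array lay above every DMSO array, but the difference of 0.35 ± 0.12 did not pass (adjusted p = 0.0783). It passed with the replicate block (adjusted p = 0.0332) and without DMSO replicate 3 (0.43, adjusted p = 0.0492). The within-array difference Rxra minus Rxrb changed by -1.31 ± 0.20 (SE), again with no overlap and an exact permutation p of 0.1. These were 2 of 27 pairs of subtypes compared in this way, of which 14 did not overlap, and the smallest p adjusted over the 27 was 0.193. In both, 1 subtype lay wholly below its controls and the other wholly above, so their separation follows from the values given above. No share over row pairs in general was computed, so the 14 stand without a background.

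Hnf4a and Nr5a2 fell among the receptors tied to hepatocyte identity and bile acid synthesis. Hnf4a is a master regulator of hepatocyte genes. It read 8.28, 7.95 and 8.11 in CsA, against 10.05, 9.91 and 9.56 in DMSO. The gap between the highest CsA array and the lowest DMSO array exceeded the range within either group, and the difference was -1.73 ± 0.15 (3.31-fold lower, adjusted p = 0.000196).

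Nr5a2 encodes LRH-1, which supports the transcription of bile acid synthesis genes. Its values were 8.41, 8.36 and 8.26 in CsA, against 9.92, 9.42 and 9.17 in DMSO. The CsA arrays varied little, the controls more, and the difference was -1.16 ± 0.18 (2.24-fold lower, adjusted p = 0.00279). Hepatocyte markers moved in the same direction. Of the 8 measured, all above the DMSO median, 6 fell, against 15.2% of all rows above it. Alb and Trf differed by -0.10 and -0.23 without passing. Apoa2 and Ttr, which fell, also stand in the HNF4A target list. The markers' mean level over the list ranged from 13.02 to 13.33 over the CsA arrays, against 14.04 to 14.22 over the DMSO arrays. The part of this shift in the receptors' falls was not tested.

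Nr0b2 encodes SHP, a receptor without a DNA-binding domain that FXR induces and that represses bile acid synthesis. It averaged 5.67 ± 0.31 in CsA and 5.68 ± 0.21 in DMSO (SD, n = 3 each). The 95% interval of its difference ran from -0.40 to 0.39, and the groups overlapped. Both means lie next to the top of the lymphocyte markers' range in DMSO (5.67). Nr0b2 is therefore not clearly shown to be above background, and its lack of a difference carries that limit. Hnf4g differed by -0.26 ± 0.11 (adjusted p = 0.137), from a level of 3.92 in DMSO. Nr5a1, the steroidogenic factor of adrenal and gonad, differed by 0.12 ± 0.11, and Nr0b1, its corepressor DAX-1, averaged 4.00 in both groups.

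The thyroid hormone receptors fell. Thra read 5.88, 5.87 and 6.06 in CsA, against 6.59, 6.62 and 6.80 in DMSO. The groups were separate, and the difference was -0.73 ± 0.11 (1.66-fold lower, adjusted p = 0.00279). Thrb, the main hepatic subtype, read 5.64, 5.59 and 5.85 in CsA, against 6.29, 6.28 and 5.92 in DMSO. DMSO replicate 3 lay close to the CsA arrays, and the difference was -0.47 ± 0.14 (1.38-fold lower, adjusted p = 0.0455). It no longer passed when CsA replicate 1 (-0.44, adjusted p = 0.126), CsA replicate 2 (-0.42, adjusted p = 0.157), DMSO replicate 1 (-0.40, adjusted p = 0.15) or DMSO replicate 2 (-0.41, adjusted p = 0.157) was left out. The same held with a trended prior variance (adjusted p = 0.0502), repeated quantile normalization (0.0664) or median centring (0.0654).

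Of the 3 retinoic acid receptors, none passed in limma. Rarb, a receptor whose own gene is induced by retinoic acid, read 5.51, 5.74 and 4.49 in CsA, against 6.08, 7.25 and 5.91 in DMSO. CsA replicate 3 was the lowest array and DMSO replicate 2 the highest, both far from the rest of their group. The difference of -1.16 ± 0.40 did not pass (adjusted p = 0.0783), and it passed with the replicate block (adjusted p = 0.00334). Rara and Rarg, the other 2 subtypes, differed by -0.081 ± 0.13 and 0.13 ± 0.14, with overlapping groups.

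Stellate cells, the liver's vitamin A store, are known to express Rarb, Pparg and Vdr. Of the 10 measured stellate markers, 1 fell (Acta2, by 1.18 on the log2 scale) and 0 rose. The list's mean level ranged from 4.68 to 4.78 over the CsA arrays, against 4.95 to 5.31 over the DMSO arrays, low on the scale in both groups. Acta2 averaged 5.43 in CsA, within the range of the lymphocyte markers, so the size of its fall is not exact. The defining markers Lrat and Pdgfrb averaged 3.18 and 3.90 in CsA, against 3.21 and 3.92 in DMSO. Col3a1 averaged 3.49 in CsA and 4.49 in DMSO and did not pass in limma (adjusted p = 0.0817). Its DMSO arrays read 5.46, 3.93 and 4.07. The part of stellate cells in the receptors' values was not tested.

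Steroid receptors and estrogen-related receptors did not pass. Nr3c1 encodes the glucocorticoid receptor, whose ligand hydrocortisone was in the medium of all cultures. It averaged 7.82 ± 0.08 in CsA and 8.19 ± 0.22 in DMSO (SD, n = 3 each), with no overlap. Its difference was -0.37 ± 0.13 (adjusted p = 0.0912), and it passed with the replicate block (adjusted p = 0.0274) and without DMSO replicate 3 (-0.50, adjusted p = 0.0201). Esr1, the main hepatic estrogen receptor, differed by -0.21 ± 0.11 (adjusted p = 0.226). Esr2 and the progesterone receptor Pgr lay low, at 5.17 and 3.87 in DMSO, and differed by -0.028 and -0.092.

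Esrra, an orphan receptor that drives mitochondrial genes, averaged 8.69 ± 0.23 in CsA and 8.74 ± 0.24 in DMSO (SD, n = 3 each). Its difference was -0.050 ± 0.16, with a 95% interval of -0.42 to 0.32. Esrrb and Esrrg stood at 4.77 and 4.35 in DMSO and differed by 0.071 and -0.029. The sign of Esr2, Esrra and Esrrg turned when the arrays were centred on their medians.

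Among the receptors tied to the circadian clock, the activator Rora fell. RORA activates and the REV-ERB proteins repress genes through the same DNA elements. Rora read 9.61, 9.46 and 9.04 in CsA, against 10.52, 10.64 and 9.81 in DMSO. Replicate 3 was the lowest of its group on both sides, and the difference was -0.95 ± 0.23 (1.94-fold lower, adjusted p = 0.0213). Rora no longer passed when CsA replicate 2 (adjusted p = 0.0578), CsA replicate 3 (-0.79, adjusted p = 0.0513), DMSO replicate 1 (-0.86, adjusted p = 0.0712) or DMSO replicate 2 (-0.80, adjusted p = 0.0827) was left out. With the replicate block its adjusted p was 0.00091.

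Both REV-ERB genes lay higher in CsA without passing. Nr1d1, which encodes REV-ERB alpha, read 5.93, 6.51 and 6.81 in CsA, against 5.49, 5.66 and 6.06 in DMSO. Replicate 3 was the highest on both sides and the groups overlapped, and the difference was 0.68 ± 0.23 (adjusted p = 0.0759). With the block it passed (adjusted p = 0.0037), as it did when CsA replicate 1 (0.92, adjusted p = 0.0201) or DMSO replicate 3 (0.84, adjusted p = 0.0463) was left out. Nr1d2, which encodes REV-ERB beta, averaged 9.42 ± 0.37 in CsA and 8.90 ± 0.14 in DMSO (SD, n = 3 each). Its difference of 0.52 ± 0.18 (adjusted p = 0.0844) passed with the block (adjusted p = 0.0141) and without CsA replicate 3 (0.73, adjusted p = 0.00566). Rorb, a neuronal form, stood at 4.63 in DMSO and differed by -0.15 ± 0.10.

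Orphan receptors of the NR2 and NR6 groups held 1 fall and 1 rise among 7. Nr2f6, a repressor related to the COUP-TF receptors, read 9.04, 9.05 and 8.80 in CsA, against 9.77, 9.81 and 9.75 in DMSO. Its controls lay close together and above all CsA arrays, and the difference was -0.82 ± 0.11 (1.76-fold lower, adjusted p = 0.00151). The COUP-TF genes Nr2f1 and Nr2f2 averaged 2.95 and 6.33 in DMSO and differed by 0.12 ± 0.14 and 0.024 ± 0.11.

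Nr2c1 encodes TR2, an orphan receptor that with TR4 represses embryonic globin genes. It read 9.51, 9.42 and 9.30 in CsA, against 9.002, 8.97 and 8.92 in DMSO, with no overlap. The small rise of 0.45 ± 0.10 passed (1.36-fold higher, adjusted p = 0.0189). Nr2c1 no longer passed when CsA replicate 1 (0.40, adjusted p = 0.0734), CsA replicate 2 (0.44, adjusted p = 0.0753), DMSO replicate 1 (0.47, adjusted p = 0.0518) or DMSO replicate 2 (0.45, adjusted p = 0.068) was left out.

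Nr2c2 encodes TR4, the partner of TR2. It read 7.95, 7.83 and 7.18 in CsA, against 7.34, 7.15 and 6.55 in DMSO. Replicate 3 was the lowest in both groups and each CsA array exceeded the DMSO array of its own number, while the groups overlapped. The difference of 0.64 ± 0.25 did not pass (adjusted p = 0.113). It passed with the replicate block (adjusted p = 0.00195) and without CsA replicate 3 (0.87, adjusted p = 0.0279).

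Nr6a1, the germ cell nuclear factor, differed by 0.45 ± 0.15 (adjusted p = 0.0689). It passed with the block (adjusted p = 0.0106) and without CsA replicate 3 (0.59, adjusted p = 0.0176). Nr2e1, a neural stem cell factor, stood at 3.67 in DMSO and differed by 0.050 ± 0.12.

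NR4A receptors are immediate early genes whose products act without a known ligand, and calcineurin signalling is known to induce Nr4a1 in T cells. None of the 3 passed. Nr4a1 averaged 7.40 ± 0.30 in CsA and 7.21 ± 0.06 in DMSO (SD, n = 3 each). Nr4a2 averaged 5.93 ± 0.10 in CsA and 5.91 ± 0.03 in DMSO, and Nr4a3 5.30 ± 0.25 in CsA and 5.53 ± 0.05 in DMSO. The 95% interval for Nr4a1 ran from -0.16 to 0.54. Nr4a3 differed by -0.23 ± 0.14 (adjusted p = 0.311) and passed without CsA replicate 3 (-0.37, adjusted p = 0.0442).

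Genes known as targets of the receptors are given by list, as counts past the threshold, beside 9.05% lower and 9.55% higher over all rows. Among rows above the DMSO median, 15.2% were lower and 15.1% higher. Most lists consist mainly of such rows, as for 20 of 22 PPARA targets and 15 of 17 HNF4A targets. Fewer lay there of the FXR (5 of 10), REV-ERB and ROR (5 of 11) and retinoic acid receptor targets (2 of 8). The 11 lists of cofactors and targets named 158 gene symbols, of which 138 were measured. Arntl and Bmal1 are symbols of the same gene, which was measured under Arntl. Several genes, such as Cyp2c29, Cyp8b1, Cyp7a1, Pck1, Klf9 and Zbtb16, stand in more than 1 list, and Nr0b2, Rarb, Nr1d1 and Nr1d2 are members that also stand in a target list. Of 17 measured targets of HNF4A, 14 fell and 0 rose, with a median difference of -1.57. Examples were the glucose transporter Slc2a2 (-3.33 ± 0.25, adjusted p = 0.000104), the coagulation factor genes F12 (-1.44 ± 0.12) and F9 (-1.67 ± 0.14), and pyruvate kinase Pklr (-1.69 ± 0.15).

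Of 17 targets of PXR and CAR, 14 fell and 0 rose, with a median of -1.49. Cyp3a11, the main PXR-induced P450 of mouse liver, averaged 10.04 ± 0.25 in CsA and 14.26 ± 0.43 in DMSO (SD, n = 3 each), 18.7-fold lower. Aldh1a1, Aldh1a7 and the drug exporter Abcb1a fell, with differences of -3.89, -3.87 and -1.44. Cyp2b10, the usual readout of CAR, averaged 11.99 ± 0.48 in CsA and 11.96 ± 0.19 in DMSO (SD, n = 3 each), while Nr1i3 itself fell as given above.

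Of 22 targets of PPARA, 16 fell and 0 rose, with a median of -1.54. Cyp4a10, a fatty acid hydroxylase, averaged 4.95 ± 0.07 in CsA and 7.68 ± 0.42 in DMSO (SD, n = 3 each, adjusted p = 6.61e-05). Its CsA level lies within the range of the lymphocyte markers, so no exact fold is given. The CsA means of Slc10a1 (5.03), Abcb1a (5.24), Dio1 (4.22), Dbp (5.23) and Cyp7a1 (4.81) lie in that range too. So do those of the members Nr1i3 (5.61) and Rarb (5.25), and the sizes of all these differences carry the same limit. The transcription factor Creb3l3 (-2.22), the lipase inhibitor Angptl4 (-2.75) and the thiolase Acaa1b (-3.09) also fell.

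Of 10 targets of FXR, 5 fell and 0 rose, with a median of -1.62. The list mixes genes that FXR induces with genes that it is known to repress (Cyp7a1, Cyp8b1 and Slc10a1), so it has no single direction. Baat and Slc27a5, which conjugate bile acids, fell (differences of -3.90 and -1.70). The bile salt importer Slc10a1, of the repressed genes, fell too (-3.41). The bile salt export pump Abcb11 averaged 6.09 ± 0.32 in CsA and 8.18 ± 0.76 in DMSO (SD, n = 3 each), 4.28-fold lower. The exporter subunits Slc51a and Slc51b, which FXR is known to induce, differed by 0.044 and -0.065, with levels of 5.48 and 5.56 in DMSO. These levels, and that of Cyp8b1 (4.87), lie within the range of the lymphocyte markers. These genes are thus not shown to be above background in either group. Cyp7a1, which FXR represses through SHP and FGF15, differed by -1.54 ± 0.47 (adjusted p = 0.0518). Cyp7a1 passed with the replicate block (adjusted p = 0.00876) and without DMSO replicate 3 (-2.17, adjusted p = 0.00086).

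**Figure D4:**
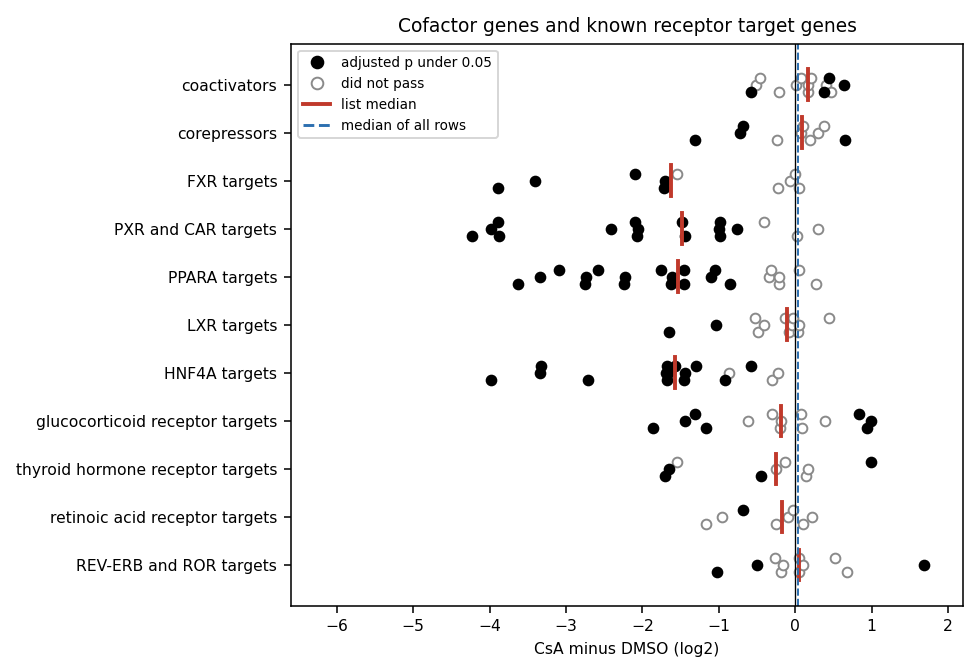
CsA minus DMSO on the log2 scale for each measured gene of the 11 lists of cofactors and known receptor targets (filled, adjusted p under 0.05; bar, list median; dashed line, median of all rows at 0.035). The medians of the FXR, PXR and CAR, PPARA and HNF4A lists lie between -1.62 and -1.49, and those of the other 7 lists between -0.26 and 0.17.

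Among the other target lists, those of LXR and the retinoic acid receptors held falls and no rises. The lists of the glucocorticoid receptor, the thyroid hormone receptors, and REV-ERB and ROR held calls in both directions. Of 12 targets of LXR, 2 fell (Abcg5, -1.66, and Apoe, -1.03) and 0 rose, with a median of -0.11. With the replicate block 4 fell, against 12.9% of all rows and 1699 of the 8165 rows above the DMSO median. Of 14 glucocorticoid receptor targets, 4 fell and 3 rose. Fkbp5, a cochaperone that restrains the receptor, averaged 8.25 ± 0.17 in CsA and 9.42 ± 0.03 in DMSO (SD, n = 3 each), 2.25-fold lower. Errfi1 and Zbtb16 fell (-1.87 and -1.31), while Klf9 rose by 0.99.

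Of 9 targets of thyroid hormone receptors, 3 fell and 1 rose. Dio1, which activates thyroid hormone, and Thrsp, a lipogenic protein, fell (-1.65 and -1.71). The gene that rose was again Klf9. Bcl3 (-0.45, adjusted p = 0.0489) no longer passed when CsA replicate 1 (adjusted p = 0.155), CsA replicate 2 (0.139), DMSO replicate 2 (0.153) or DMSO replicate 3 (0.114) was left out, nor with a trended prior variance (0.0545) or median centring (0.0681).

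Of 8 retinoic acid receptor targets, 1 fell, the transglutaminase Tgm2 (-0.68 ± 0.18, adjusted p = 0.0277). With the block 3 fell, against 12.9% of all rows, among them the member Rarb already given above. Tgm2 no longer passed when CsA replicate 1 (adjusted p = 0.0813), CsA replicate 2 (0.0666), CsA replicate 3 (0.0588), DMSO replicate 2 (0.106) or DMSO replicate 3 (0.069) was left out, nor without both arrays numbered 3 (0.0982). Dhrs3, a retinal reductase (-0.96, adjusted p = 0.0892), passed with the block (adjusted p = 0.00495) and when CsA replicate 1 (-1.32, adjusted p = 0.0239) or DMSO replicate 3 (-1.28, adjusted p = 0.0286) was left out.

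Of 11 genes that REV-ERB and ROR proteins control, 2 fell and 1 rose. With the block 3 rose, against 15.8% of all rows, the gains being the members Nr1d1 and Nr1d2 already given above. Nfil3, a repressor under REV-ERB control, rose by 1.69 ± 0.11 (adjusted p = 4.68e-05). The clock output factor Dbp (-1.02, adjusted p = 0.000763) and the clock repressor Per2 (-0.50, adjusted p = 0.019) fell. Per2 no longer passed when CsA replicate 1 (adjusted p = 0.0639), CsA replicate 2 (0.084), DMSO replicate 1 (0.0542) or DMSO replicate 2 (0.082) was left out. Arntl, the clock activator that both receptor types control, differed by -0.16 without passing (adjusted p = 0.53).

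Cofactors carry the receptors' effect to chromatin. Of 14 measured coactivators, 3 rose and 1 fell, with a median of 0.17, and 5 rose and 3 fell with the block. All 14 lay above the DMSO median, where 15.1% of all rows rose and 15.2% fell without the block. With the block, 2002 of the 8165 rows above that median rose and 1699 fell. Pprc1 rose by 0.64 ± 0.13 (adjusted p = 0.0101), Ncoa3 by 0.44 ± 0.11 (adjusted p = 0.0224) and Med1 by 0.37 ± 0.11 (adjusted p = 0.0488), while Ppargc1b fell by 0.57 on the log2 scale (adjusted p = 0.0425). With CsA replicate 2 left out, Pprc1 (adjusted p = 0.0509), Ncoa3 (0.0714), Med1 (0.175) and Ppargc1b (0.153) no longer passed. Ncoa3, Med1 and Ppargc1b were also lost with CsA replicate 1 (adjusted p = 0.0651, 0.132 and 0.124) or DMSO replicate 1 (0.0578, 0.109 and 0.084) left out. Med1 and Ppargc1b were lost with DMSO replicate 2 (0.0932 and 0.0792) or DMSO replicate 3 (0.106 and 0.105) left out. Med1 was also lost with a trended prior variance (adjusted p = 0.0593), and Ppargc1b with repeated quantile normalization (adjusted p = 0.0524).

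Of 10 genes listed as corepressors, all above the DMSO median too, 3 fell and 1 rose. Tbl1xr1, part of the NCoR complex, (-0.68), Bcl6 (-0.73) and Zbtb16 (-1.31) fell. Bcl6 and Zbtb16 are themselves DNA-binding repressors, not cofactors that nuclear receptors recruit. Nrip1, which encodes RIP140, rose by 0.65 ± 0.12 (adjusted p = 0.00593). Bcl6 no longer passed when CsA replicate 2 (adjusted p = 0.0501), DMSO replicate 1 (0.0687) or DMSO replicate 2 (0.0682) was left out.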

How the data were processed

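Biotin-labelled targets were prepared from total RNA by the Affymetrix procedure, per the labels' protocols. The submitters' processing notes name RMA and R 2.11.0, and the deposited values are on the log2 scale. The method corrects background, equalises the arrays' distributions and summarises probes, so it removes changes in total RNA and compresses dim rows. No source used here states the probe set version. Depth does not apply to arrays, and 3 arrays per group limit the precision. The annotation of the platform gave 1 symbol to 15136 of 16331 rows, and all 43 member symbols matched RefSeq by Entrez ID. No detection call was used.

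Titles give the group of every array. The 3 CsA arrays were set against the 3 DMSO arrays with a linear model without covariates in limma 3.58.1 (R 4.3.3, moderated and two-sided), with Benjamini-Hochberg adjustment over all 16331 rows and a threshold of 0.05. The fit was tested on simulated data. Groups share replicate numbers, and deviations of same-numbered arrays correlated at 0.398, 0.242 and 0.499 over all rows, so a fit with the number as a block was the alternative. Of differently numbered arrays, CsA replicate 1 and DMSO replicate 2 correlated at 0.221, near the 0.242 of the arrays numbered 2. CsA replicate 2 and DMSO replicate 1 correlated at 0.040. For numbers 1 and 2 the pairing is thus less clear than for number 3. The pairing rests on these correlations, since the labels do not say that a number marks 1 animal in both groups.

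Members and lists were chosen with earlier results of these data known, and no list was tested as a set. Each member with a call or a log2 difference of at least 0.58 has its array values printed. Of each list, up to 4 called genes with the smallest adjusted p were named, plus 6 fixed genes. The fixed genes were Cyp2b10, Cyp3a11, Cyp7a1, Abcb11, Cyp4a10 and Fkbp5. Dhrs3, Arntl, Slc51a, Slc51b and the markers named were chosen after their values were seen. Alternatives were a trended prior variance, array weights, repeated quantile normalization, median centring, leaving out the dimmest 20% or 50% of rows, leaving out single arrays or both arrays numbered 3, and a stricter threshold of 0.01. Protein sequences were not used here.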

Additional observations from a re-analysis of the deposited data

How the results depend on the processing

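Of the 16 called members, 12 kept their call and sign in every alternative that kept their row, and Ppard, Thrb, Rora and Nr2c1 did not. The count of lower members ranged from 12 to 15 without single arrays and from 10 to 17 over all alternatives, the 10 with the dimmest 50% of rows left out, which removes members. Higher members numbered 7 with the replicate block, 7 with array weights, 6 without both arrays numbered 3 and 4 with centring. Without the dimmest 50% of rows, which removes Ppard, 1 was higher. At an adjusted p under 0.01, 0 members were higher, and 0 to 4 without single arrays. Rows changed numbered 3037, and 4686 with the block, 5190 with array weights, 1509 at 0.01 and 1738 to 3219 without single arrays. With the block, the replicate pairing changed the calls of 7 members (all gains) and no called member lost its call or changed sign.

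For the lists, lower coactivators numbered 3 (block), 4 (weights), 0 (quantile), 2 (dimmest 50% out), 0 (0.01) and 0 to 1 (single arrays out), and higher ones 5, 5, and 0 at 0.01, with 0 to 3. Array weights gave 2 higher corepressors, and quantile normalization 1 higher PPARA target. Lower LXR targets numbered 4 with the block and 1 without the dimmest 50%, which removes Abcg5. Lower retinoic acid receptor targets numbered 3 (block) and 4 (weights), both with the member Rarb, 0 (0.01) and 0 to 1. REV-ERB and ROR targets that fell numbered 0 (dimmest 50% out, which removes Dbp and Per2), 1 (0.01) and 1 to 3. Those that rose numbered 3 (block), 3 (weights), 2 (both arrays numbered 3 out) and 1 to 2. The gains among these were the members Nr1d1 and Nr1d2. Higher PXR and CAR targets numbered 0 to 1 without single arrays. The causes were not tested.

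Sign changes occurred only among uncalled members. With array weights Rara gave 0.020, Esr2 0.087 and Esrrg 0.022. Centring gave Esr2 0.024, Esrra 0.0019, Esrrg 0.024 and Nr0b2 0.049. Quantile normalization gave Nr0b1 -0.012 and Nr0b2 0.019, and leaving out both arrays numbered 3 gave Rara 0.071 and Esr2 0.16. Without single arrays, ranges crossing 0 were -0.15 to 0.046 (Rara), -0.014 to 0.25 (Rarg), -0.12 to 0.11 (Esr2), -0.19 to 0.063 (Esrra), -0.15 to 0.052 (Esrrg), -0.071 to 0.085 (Nr0b1), -0.14 to 0.16 (Nr0b2), -0.027 to 0.12 (Nr2e1), -0.022 to 0.090 (Nr2f2) and -0.030 to 0.075 (Nr4a2). The count of 19 members above the DMSO median became 20 on DMSO replicate 2 alone and stayed 19 otherwise.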
